A study of Mus musculus with 6 samples.

Results

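The genes described here carry, receive, restrain and relay Wnt signals: the Wnt ligands, their frizzled and LRP receptors, the R-spondins, the secreted antagonists, the Axin and naked cuticle genes, beta-catenin with the TCF/LEF factors, and the Wisp genes. They were chosen by a rule on symbols that uses no values, but with earlier results of these data known. The rule matched 50 of the 29587 gene rows of the deposited table. By role they were 13 ligands, 4 R-spondins, 12 receptors, 10 secreted antagonists, 4 scaffold or feedback genes, 5 nuclear factors and 2 matricellular genes. Members of these families that have no row in the table were not analysed here. The study measured messenger RNA in osteoblasts killed by ultraviolet light, with 3 libraries from young mice and 3 from old mice, and the question was how their transcripts vary with donor age. In both groups bone pieces were put in culture, adherent cells were taken through 3 passages, kept in osteogenic medium for 3 days and then exposed to ultraviolet light, so the RNA comes from dying cultured cells in every library. The labels give the genotype as none, give the ages only as young and old, and do not say whether replicate libraries stem from different animals or cultures, so p-values measure only the spread between these libraries.

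As background, a Wnt ligand binds a frizzled receptor together with Lrp5 or Lrp6, and this holds back the complex around Axin, Apc and the kinase Gsk3b that marks beta-catenin for destruction. Beta-catenin then gathers in the nucleus and acts with TCF/LEF factors on target genes. In bone, canonical Wnt signaling favors osteoblast formation, and antagonists such as Dkk1 and sclerostin restrain it.

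Young replicate 1 stood apart from the other libraries. Its correlation over genes with the other young libraries was 0.949 and 0.962, and every pair among the other 5 libraries had a correlation of 0.977 to 0.997. It also had the fewest recovered reads, 64881180 against up to 84535939, and the lowest share of reads in mitochondrially encoded genes, 1.05% against 1.62% to 2.29%. Counts of calls in the members, the other pathway genes and the targets are therefore given with and without it. Single genes are given without it where stated. Of 8 osteoblast markers 6 had a mean of at least 1 RPKM (reads scaled to gene length and library size), but Alpl and Bglap did not, and the summed level of the 8, made up mostly of Col1a1 and Col1a2, was 2090 to 3089 RPKM in young and 2981 to 3069 RPKM in old libraries. Within it limma called Sp7 lower in old (means of 8.44 and 4.90 RPKM in young and old, adjusted p = 0.0186) and Spp1 higher (290 and 732 RPKM, adjusted p = 0.0307). Runx2 lay lower in old without overlap (5.11 and 3.91 RPKM, limma adjusted p = 0.423). Bglap, below the filter, lay higher in old without overlap (0.416 and 0.742 RPKM). Ibsp (28.4 and 20.0 RPKM, limma adjusted p = 0.406), Col1a1, Col1a2 and Alpl had lower means in old and overlapped. The summed osteocyte markers were 27.6 to 29.6 RPKM in young and 33.6 to 41.7 RPKM in old libraries, the stromal ones 23.9 to 24.7 and 26.8 to 27.1 RPKM, and the smooth muscle and pericyte ones, nearly all Acta2, 424 to 428 and 440 to 504 RPKM. These 3 sums separated the groups, and of their genes Dmp1, Pdpn and Acta2 had limma adjusted p of 0.121, 0.325 and 0.699. Pdgfra (means of 5.62 and 5.17 RPKM in young and old, limma adjusted p = 0.978), Lepr, Mepe and Phex had lower means in old. The other genes of these lists had higher means in old, but Ly6a, Fgf23, Cnn1, Des and Rgs5 overlapped between groups. For Ly6a, Des and Rgs5, young replicate 1 (6.22, 0.895 and 0.0746 RPKM) was above every old library. Of the macrophage and osteoclast markers, Lyz2 (6.54 to 8.53 RPKM) and Ctsk (27.0 to 36.5 RPKM) were expressed. Cd68 (0.540 to 1.04 RPKM) and Csf1r (0.360 to 0.618 RPKM) had low levels in every library, while Ptprc, Adgre1, Acp5, Calcr and Ocstamp were at or near 0. The summed endothelial and adipocyte markers reached at most 0.126 and 0.108 RPKM. Chondrocyte markers, of which Col2a1 and Sox9 were expressed, summed to 34.2, 66.9 and 73.0 RPKM in young replicates 1, 2 and 3 and to 53.0, 55.0 and 56.6 RPKM in old ones. Many members below share that order, with young replicate 1 lowest, the other young libraries highest and the old ones between; the part of these cell types, of depth or of RNA quality in the results was not tested.

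Of the 50 members, 21 reached 1 RPKM in at least 3 libraries and were tested among 12015 genes. None of the 21 passed through 1 group alone. A further 9 had a mean of 0.1 RPKM or more, and the remaining 20 had a mean under 0.1 RPKM, with 0.110 RPKM as the highest value in any library. In 13 of these 20 at least 1 library had no read, and in 8 no library had more than 3 reads, the number below which a level is not told from 0 here.

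**Figure D1:**
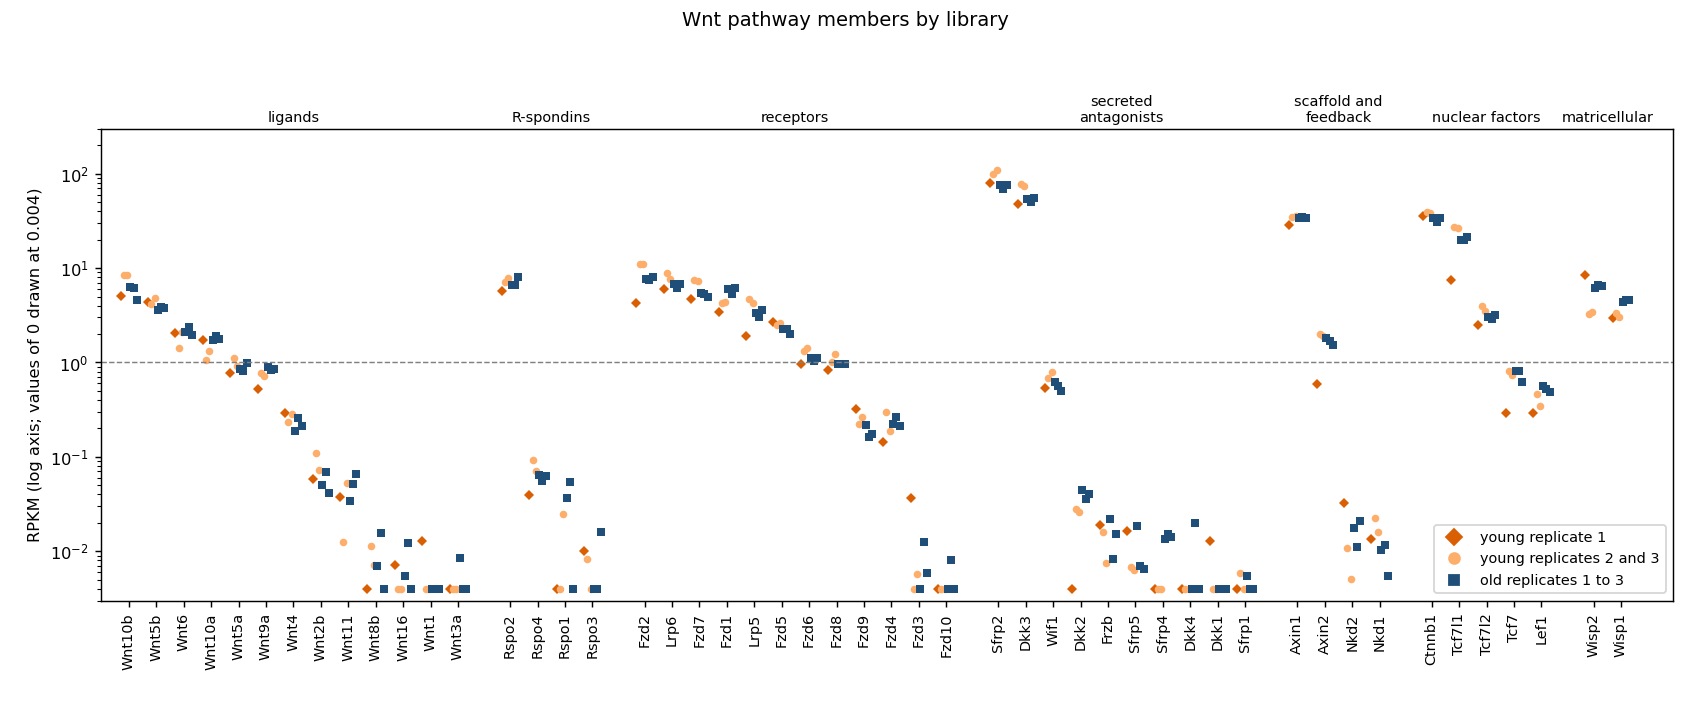
RPKM (log axis) of the 50 members by role, 1 point per library, with values of 0 drawn at the foot of the axis and the dashed line at the 1 RPKM of the expression filter. Sfrp2 and Dkk3 had the highest levels among the antagonists, Axin1 and Ctnnb1 lay between 28.7 and 39.3 RPKM, and 20 members lay under 0.1 RPKM on average.

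With all 6 libraries no member was called higher or lower in old than in young by limma (adjusted p under 0.05 over all genes tested). Over all genes, 1.47% were called higher and 0.0999% lower. At an unadjusted p under 0.05 there were 3 members, Wisp1, Fzd1 and Sfrp2, against 11.2% of all genes tested. The limma voom test on recovered reads took in 34 members and also called 0 (1.23% and 0.0402% of all genes higher and lower), with 4 at an unadjusted p under 0.05, the same 3 and Lef1. The median difference of the 21 members was -0.07 on the log2(RPKM + 1) scale, with 9 positive and 12 negative, beside 0.01 over all genes. The groups did not overlap in 6 of the 21, against 20.8% of all genes tested: Wisp1 and Fzd1 lay higher in old, and Sfrp2, Wnt5b, Ctnnb1 and Fzd5 lower. In bulk RNA, fewer cells of a type and less RNA per cell cannot be told apart.

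Without young replicate 1, limma called 14 of the 21 members. Wisp1, Wisp2, Fzd1 and Wnt10a were called higher, beside 13.2% of all genes, and Sfrp2, Dkk3, Fzd2, Fzd7, Lrp5, Lrp6, Wnt10b, Ctnnb1, Tcf7l1 and Tcf7l2 were called lower, beside 19.4% of all genes. The median difference of the members was then -0.22, with 5 positive and 16 negative, and that of all genes -0.05. The voom test without this library called 4 members higher and 12 lower of 34, adding Fzd6 and Wnt5b to the lower ones, where 10.6% and 19.1% of all genes were called. With genes of at least 0.1 RPKM tested, 30 members entered and limma called 0 with all libraries, with 3 at an unadjusted p under 0.05 (beside 1.16% of all genes called higher and 0.0637% lower). Without young replicate 1 it then called 4 members higher and 9 lower, beside 8.91% and 11.1% of all genes. Leaving out any other single library gave no call among the members.

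**Figure D2:**
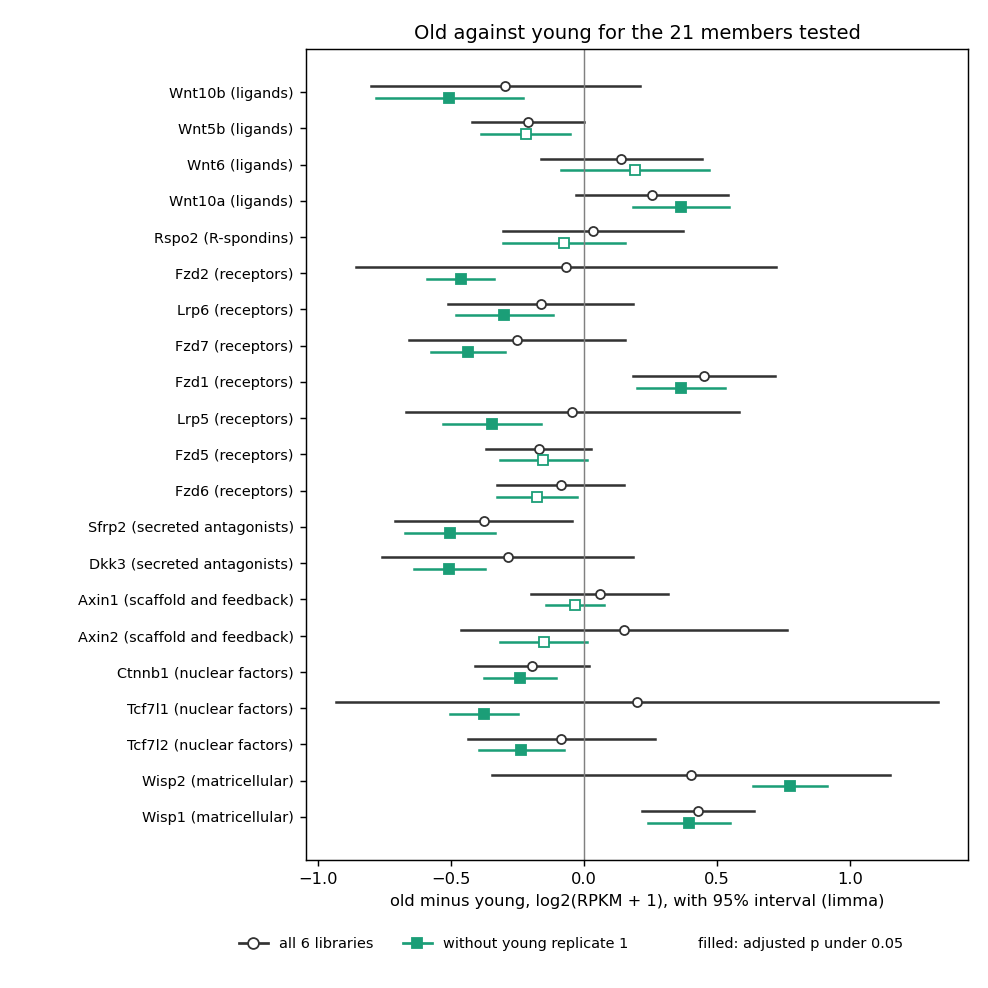
Difference of old minus young on the log2(RPKM + 1) scale with its 95% interval from limma for the 21 members tested, for all 6 libraries (circles) and without young replicate 1 (squares), filled where the adjusted p was under 0.05. No circle is filled, 14 squares are, and the intervals of Tcf7l1, Fzd2, Wisp2, Axin2 and Lrp5 narrow most in width when the library is left out.

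Among the ligands, Wnt10b made up 32.5% to 48.9% and Wnt5b 22.6% to 29.3% of the summed Wnt RPKM, and the sum itself was 15.0, 17.5 and 18.6 RPKM in young and 15.8, 16.3 and 14.3 RPKM in old libraries. Wnt10b, a canonical ligand known for favoring osteoblast over fat cell formation, stood at 5.10, 8.55 and 8.36 RPKM in young replicates 1, 2 and 3 and at 6.38, 6.08 and 4.64 RPKM in old ones. Young replicate 1 thus lay among the old libraries and the other young libraries above them all. The difference was -0.30 ± 0.21 (log2, SE; limma adjusted p = 0.781), and without young replicate 1 it was -0.51 (limma adjusted p = 0.0205). Wnt5b, usually counted among the ligands that signal without beta-catenin, stood at 4.39, 4.19 and 4.81 RPKM in young and at 3.57, 3.84 and 3.75 RPKM in old libraries. Every young library was above every old one, with an old minus young difference of -0.21 ± 0.09 (log2, SE), and limma did not call it with or without young replicate 1 (adjusted p = 0.448 and 0.0538).

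Wnt10a and Wnt6, neighboring genes on chromosome 1 and both linked to the beta-catenin branch, leaned the other way. Wnt10a stood at 1.72, 1.05 and 1.31 RPKM in young and 1.72, 1.91 and 1.78 RPKM in old libraries, where again young replicate 1 sat with the old group. Its difference was 0.26 ± 0.12 with all libraries (limma adjusted p = 0.52) and 0.36 without young replicate 1 (limma adjusted p = 0.0156). Wnt6 stood at 2.07, 1.43 and 2.12 RPKM in young and 2.09, 2.40 and 1.97 RPKM in old libraries, and the groups overlapped (limma adjusted p = 0.854). Below the filter, Wnt9a did not overlap between groups, at 0.528, 0.774 and 0.725 RPKM in young and 0.895, 0.828 and 0.848 RPKM in old libraries. With genes of at least 0.1 RPKM tested, on the log2(RPKM + 0.1) scale, its difference was 0.32 ± 0.17 (limma adjusted p = 0.64). Wnt5a, the best known ligand of the branches without beta-catenin, ranged from 0.776 to 1.12 RPKM and Wnt4 from 0.186 to 0.294 RPKM. Wnt2b, Wnt11, Wnt8b, Wnt16, Wnt1 and Wnt3a stayed under 0.1 RPKM on average, and Wnt1 and Wnt3a each had reads in 1 library alone.

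The R-spondins, secreted proteins that raise Wnt signaling by keeping frizzled receptors at the cell surface, were represented by Rspo2, which made up 98.4% to 99.2% of their summed RPKM. Rspo2 stood at 5.75, 7.08 and 7.93 RPKM in young and at 6.61, 6.59 and 8.07 RPKM in old libraries. The groups overlapped throughout, with a difference of 0.03 ± 0.14 and a 95% interval of -0.30 to 0.37 (limma adjusted p = 0.987). Without young replicate 1 the difference was -0.08 (limma adjusted p = 0.566). Rspo1, Rspo3 and Rspo4 did not exceed 0.0924 RPKM in any library. Of the proteins that R-spondins act through, the receptor gene Lgr4 stood at 1.92, 2.29 and 2.20 RPKM in young and 1.42, 1.28 and 1.47 RPKM in old libraries, while Lgr5 and Lgr6 had at most 16 and 14 reads. Every young library exceeded every old one for Lgr4, with a difference of -0.39 ± 0.08 that limma did not call with all libraries (adjusted p = 0.11) and called without young replicate 1 (adjusted p = 0.00591). Rnf43 and Znrf3, which encode the ubiquitin ligases that clear frizzled receptors, lay between 0.653 and 1.45 RPKM and overlapped between groups, and Rnf43 was called lower without young replicate 1 (difference -0.29, limma adjusted p = 0.025).

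Fzd2, Fzd7 and Fzd1 were the frizzled receptors of highest level, and Fzd1 and Fzd7 lay in different proportion in the libraries of young and old. Fzd1 (chr5:4753839-4758035 on mm10) stood at 3.43, 4.25 and 4.32 RPKM in young replicates 1, 2 and 3 and at 5.95, 5.36 and 6.16 RPKM in old ones. Every old library was above every young one, with a ratio of means of 1.46. Its difference of 0.45 ± 0.11 had an unadjusted limma p of 0.00594 and did not pass the adjustment over all genes (adjusted p = 0.162), and it was called without young replicate 1 at 0.37 (limma adjusted p = 0.0118). Fzd7 (chr1:59482424-59486955) stood at 4.75, 7.56 and 7.31 RPKM in young and 5.40, 5.33 and 4.99 RPKM in old libraries. Young replicate 1 was the lowest of all and the other young libraries the highest, so the difference was -0.25 ± 0.17 with all libraries (limma adjusted p = 0.746) and -0.44 without that one (limma adjusted p = 0.00452). Fzd2 stood at 4.29, 11.0 and 11.0 RPKM in young and 7.72, 7.51 and 7.97 RPKM in old libraries. Its young values spanned the old ones on both sides, with a difference of -0.07 ± 0.33 (limma adjusted p = 0.989) that became -0.46 without young replicate 1 (limma adjusted p = 0.00245).

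Expressed as shares of all frizzled RPKM in a library, which sets aside the overall level of the family, Fzd1 made up 19.7%, 15.1% and 15.2% in young and 24.9%, 23.4% and 26.1% in old libraries. Fzd7 made up 27.3%, 26.9% and 25.8% in young and 22.6%, 23.3% and 21.1% in old libraries. Both shares separated the groups with young replicate 1 included, although the summed frizzled level did not: it was 17.4, 28.2 and 28.4 RPKM in young and 23.9, 22.9 and 23.6 RPKM in old libraries. The ratio of Fzd1 to Fzd7 was 0.721, 0.562 and 0.591 in young and 1.10, 1.00 and 1.23 in old libraries. These shares and this ratio were chosen after the values were seen and were given no test. Shares of the same sum are not independent: a higher Fzd1 share by itself lowers the Fzd7 share. The RPKM of Fzd7 itself overlapped between groups, so its share does not stand as a separate difference. The share of Fzd2 overlapped between groups, at 24.6%, 39.2% and 38.8% in young and 32.3% to 33.8% in old libraries, and so did the ratio of Fzd1 to Fzd2, at 0.80, 0.385 and 0.392 in young and 0.772, 0.713 and 0.773 in old libraries.

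**Figure D3:**
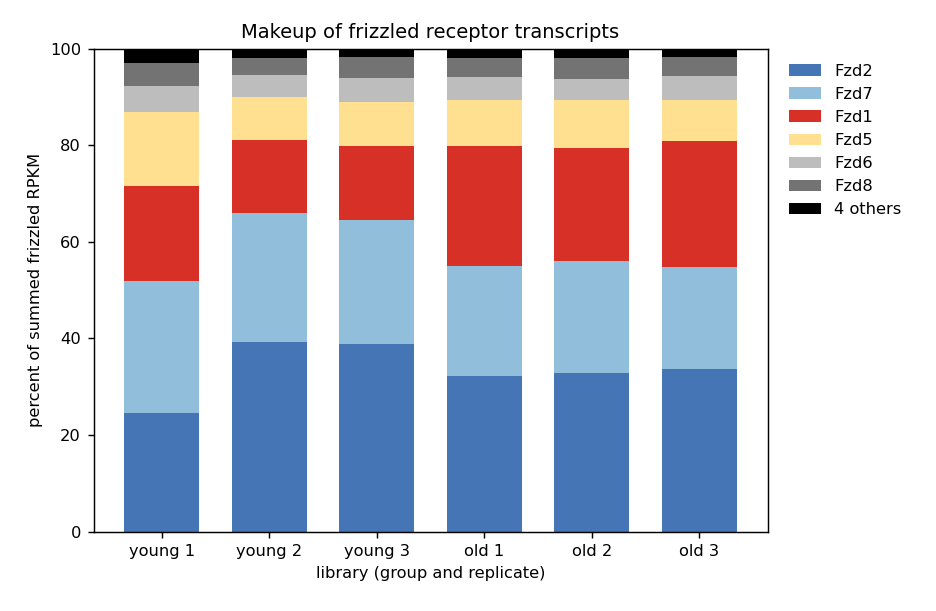
Share of each frizzled gene in the summed frizzled RPKM of a library, in percent, 1 bar per library. Fzd1 takes 23.4% to 26.1% of the bar in the old libraries and 15.1% to 19.7% in the young ones, and the Fzd7 share runs the opposite way.

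The stretch before the start of Fzd1 and that before Fzd7 are shown because the shares of these receptors are described above. The Fzd7 share is not a separate difference, so no contrast between the stretches is drawn from the shares. Both are from RefSeq on GRCm38.p6, run from 250 bases to 1 base before the RefSeq start and are written on the strand of the gene. The RefSeq start lies 181 bases upstream of the start in the deposited table for Fzd1 and 277 bases upstream for Fzd7, so neither window overlaps the gene as counted. Capitals mark a TCF/LEF-type match, taken as CTTTG followed by AA, AT, TA or TT on either strand.
Fzd1, chr5:4758217-4758466, minus strand: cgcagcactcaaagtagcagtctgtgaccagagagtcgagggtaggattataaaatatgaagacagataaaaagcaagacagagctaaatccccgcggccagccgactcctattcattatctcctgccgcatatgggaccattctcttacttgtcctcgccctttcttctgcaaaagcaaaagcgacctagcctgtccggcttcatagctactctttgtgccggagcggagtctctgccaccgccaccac
Fzd7, chr1:59481897-59482146, plus strand: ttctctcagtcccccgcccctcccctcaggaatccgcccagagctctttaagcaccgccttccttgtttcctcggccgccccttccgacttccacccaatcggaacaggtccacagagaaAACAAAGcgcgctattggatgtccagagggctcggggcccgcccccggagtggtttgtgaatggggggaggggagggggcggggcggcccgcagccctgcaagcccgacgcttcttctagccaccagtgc
The Fzd7 window held 1 match, read on the opposite strand and 130 bases before the RefSeq start, and the Fzd1 window held none. Among the members, 33 of 50 had a promoter in the RefSeq table, and 6 of their 42 windows (14.3%) held a match, beside 14.8% of all 32851 windows of 250 bases. The median share of G and C was 66.6% in the member windows and 52.4% in all windows. The rates of matches were not adjusted for this, so they are not a like comparison. A match is a string of letters and was not tested for binding.

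The co-receptors followed the pattern of Fzd2. Lrp6 stood at 5.98, 8.87 and 7.71 RPKM in young and at 6.78, 6.13 and 6.73 RPKM in old libraries. Lrp5, whose loss lowers and whose gain raises bone mass, stood at 1.92, 4.69 and 4.27 RPKM in young and 3.36, 3.02 and 3.57 RPKM in old libraries. In both genes young replicate 1 was the lowest library and the other young libraries exceeded every old one. The differences were -0.16 ± 0.14 for Lrp6 (limma adjusted p = 0.854) and -0.04 ± 0.26 for Lrp5 (limma adjusted p = 0.992), and without young replicate 1 they were -0.30 and -0.35 (limma adjusted p = 0.0278 and 0.0191). Fzd5 stood at 2.67, 2.47 and 2.64 RPKM in young and 2.29, 2.28 and 2.02 RPKM in old libraries, with no overlap. Limma did not call it with or without young replicate 1 (differences of -0.17 ± 0.08 and -0.15, adjusted p = 0.547 and 0.126). Fzd6 stood at 0.958, 1.31 and 1.41 RPKM in young and 1.10, 1.03 and 1.13 RPKM in old libraries, overlapping (limma adjusted p = 0.916). Below the filter, Fzd9 did not overlap, at 0.323, 0.225 and 0.263 RPKM in young and 0.217, 0.162 and 0.173 RPKM in old libraries (limma adjusted p = 0.577 with genes of at least 0.1 RPKM tested). Fzd8 and Fzd4 overlapped between groups, in the ranges 0.834 to 1.23 and 0.142 to 0.299 RPKM, and Fzd3 and Fzd10 did not exceed 0.0365 RPKM.

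Secreted antagonists had the highest levels of all the members, and 2 genes supplied nearly all of them. Sfrp2, a frizzled-related protein that binds Wnt ligands outside the cell (chr3:83766321-83774316), stood at 80.6, 99.5 and 111 RPKM in young and at 75.6, 69.1 and 76.8 RPKM in old libraries. Every young library was above every old one, with young replicate 1 nearest to the old group and a ratio of means of 0.762. The difference was -0.38 ± 0.14 with an unadjusted limma p of 0.0315 and an adjusted p of 0.368, and without young replicate 1 it was -0.50 (limma adjusted p = 0.00508). Dkk3, a divergent member of the Dickkopf family, stood at 47.6, 77.3 and 74.6 RPKM in young and 53.7, 50.5 and 55.3 RPKM in old libraries. Young replicate 1 lay under the old libraries and the other young libraries well over them, giving -0.29 ± 0.19 (limma adjusted p = 0.756) and, without it, -0.51 (limma adjusted p = 0.00214).

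Summed over the 10 genes classed as antagonists by symbol, the level was 129, 178 and 186 RPKM in young and 130, 120 and 133 RPKM in old libraries. Young replicate 1 thus fell within the old range. Whether each of these genes, Dkk3 among them, acts against Wnt signals in these cells was not tested. Within that sum the proportions stayed within narrow ranges: Sfrp2 made up 56.0% to 62.6% and Dkk3 37.0% to 43.5% over the 6 libraries. Wif1, a secreted protein that binds Wnt ligands, ranged from 0.495 to 0.785 RPKM and overlapped between groups. The other 7 antagonists, Dkk1, Dkk2, Dkk4, Sfrp1, Sfrp4, Sfrp5 and Frzb, did not exceed 0.0447 RPKM in any library. For Dkk1, the Dickkopf protein that blocks Lrp5 and Lrp6 and a known target of Wnt signaling in its own right, 2 reads were found in young replicate 1 and none in the other 5 libraries. Its transcript was thus not detectable beyond the floor of 3 reads in either group, which leaves no age difference to read.

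Axin1, the scaffold of the destruction complex, stood at 28.7, 34.7 and 35.3 RPKM in young and at 33.6, 34.6 and 34.2 RPKM in old libraries. Apart from young replicate 1 the libraries lay close together, and the 95% interval of the difference ran from -0.20 to 0.32 with all libraries and from -0.14 to 0.08 without that one (limma adjusted p = 0.966 and 0.587). Axin2, which has a similar role and is induced by beta-catenin as a feedback brake, stood at 0.588, 2.02 and 1.93 RPKM in young and 1.80, 1.69 and 1.55 RPKM in old libraries. Young replicate 1 had less than any other library, and the other young libraries slightly more than the old ones. The difference was 0.15 ± 0.25 (limma adjusted p = 0.964) and turned to -0.15 without young replicate 1 (limma adjusted p = 0.127), so no age difference was called for this common readout of Wnt signaling in either case. The feedback genes Nkd1 and Nkd2 did not exceed 0.0326 RPKM.

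Among the nuclear factors, Ctnnb1, which encodes beta-catenin, stood at 35.6, 39.3 and 38.8 RPKM in young and at 33.8, 31.1 and 34.0 RPKM in old libraries. Every young library was above every old one, with a difference of -0.20 ± 0.09 (limma adjusted p = 0.505) and of -0.24 without young replicate 1 (limma adjusted p = 0.0228). Beta-catenin is regulated mainly through the stability of the protein, which was not measured. Tcf7l1, a TCF factor known mainly as a repressor, stood at 7.42, 27.0 and 26.6 RPKM in young and at 19.9, 20.0 and 21.4 RPKM in old libraries. No other tested member was spread so widely within a group: young replicate 1 lay -1.72 from the other young libraries on the log2 scale. The difference was 0.20 ± 0.47 with all libraries (limma adjusted p = 0.975) and -0.37 without young replicate 1 (limma adjusted p = 0.00537), so its direction rests on that library. Tcf7l2 stood at 2.47, 3.93 and 3.54 RPKM in young and at 3.05, 2.87 and 3.15 RPKM in old libraries, with differences of -0.09 ± 0.15 and, without young replicate 1, -0.23 (limma adjusted p = 0.964 and 0.0394).

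The remaining family members, Lef1 and Tcf7, lay below the filter. Lef1, which binds DNA together with beta-catenin and often activates its targets, stood at 0.291, 0.468 and 0.350 RPKM in young and 0.567, 0.519 and 0.483 RPKM in old libraries. All old libraries exceeded all young ones, with a difference of 0.42 ± 0.19 on the log2(RPKM + 0.1) scale that limma did not call (adjusted p = 0.521). Tcf7 stood at 0.294, 0.815 and 0.731 RPKM in young and 0.811, 0.818 and 0.623 RPKM in old libraries and overlapped. By the deposited exon positions, exons of Ctnnb1, Tcf7l1, Lef1, Axin2, Sfrp2, Fzd5, Wnt5a, Wnt11 and Rspo3 overlap a gene on the other strand. Ctnnb1 also holds Mir7090 on its own strand. Whether counting used strand is not given in the sources used here, so for these genes reads of both partners cannot be told apart.

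The matricellular genes Wisp1 and Wisp2, CCN family members known as responders to Wnt signaling, both had higher means in old. Wisp1 (chr15:66891320-66923201) stood at 2.93, 3.39 and 3.04 RPKM in young replicates 1, 2 and 3 and at 4.37, 4.60 and 4.63 RPKM in old ones. The groups were well apart and each was narrow, at 3.12 ± 0.238 RPKM for young and 4.53 ± 0.146 RPKM for old (SD, n = 3), with a ratio of 1.45. Of the 21 tested members it had the smallest p: its difference of 0.43 ± 0.09 had an unadjusted limma p of 0.00231 and an adjusted p of 0.0952, over the threshold, and 0.00766 without young replicate 1. At an adjusted limma p under 0.1 it was the sole member to pass, beside 2.11% of all genes higher. Wisp2 (chr2:163820861-163833146) stood at 8.40, 3.23 and 3.44 RPKM in young and at 6.18, 6.55 and 6.51 RPKM in old libraries. Young replicate 1 was the highest of all 6 and the other young libraries the lowest, so the difference was 0.40 ± 0.31 (limma adjusted p = 0.81). Without young replicate 1 it was 0.77 (limma adjusted p = 0.000443), the largest among the members tested, with old at 1.92 times the mean of the remaining young libraries.

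Young replicate 1 differed from the other young libraries by a median of 0.38 (log2, absolute) over the 21 members, the same 0.38 as over all genes, while young replicates 2 and 3 differed from each other by 0.07 in the members and 0.09 in all genes. Of the 14 members called without it, young replicate 1 lay nearer to the old mean than to the mean of the other young libraries in 12 (85.7%, beside 73.1% of all 3918 genes so called). In 9 of the 14 it lay beyond the old mean (64.3%, beside 61.3%): Fzd2, Fzd7, Lrp5, Lrp6, Dkk3, Wnt10b, Tcf7l1, Tcf7l2 and Wisp2. Wisp1 and Fzd1 were the pair of calls in which it stayed nearer to the young libraries.

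**Figure D4:**
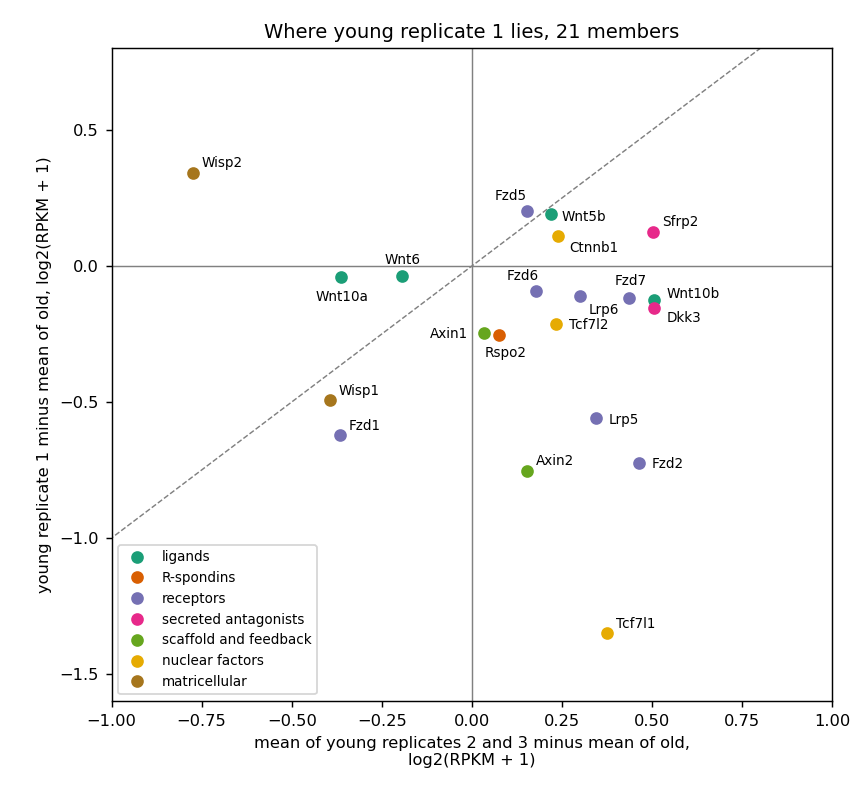
For the 21 members tested, the mean of young replicates 2 and 3 minus the mean of old (horizontal) and young replicate 1 minus the mean of old (vertical), both on the log2(RPKM + 1) scale, with a dashed line where they are equal. Wisp1 and Fzd1 lie near the dashed line at the lower left, Wisp2 lies at the upper left, and Tcf7l1, Fzd2, Lrp5 and Axin2 lie farthest down at the lower right, where young replicate 1 is below old and the other young libraries are above it.

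Around the members, 134 other gene symbols of the pathway were listed, with some genes under more than 1 symbol. Of these symbols 129 had a row and 91 were tested. Limma called 1 higher in old, Dact2 (1.10% of the 91, beside 1.47% of all genes), and 0 lower (beside 0.0999%). At an unadjusted limma p under 0.05 there were 6, beside 11.2% of all genes. Voom also called Dact2 higher and none lower, beside 1.23% and 0.0402% of all genes. The median difference was 0.0013 over the 91, beside 0.01 over all genes. The groups did not overlap in 12 of the 91 (13.2%, beside 20.8% of all genes), 4 higher and 8 lower in old. Dact2, whose product binds Dishevelled proteins and modulates Wnt and TGF-beta signaling, stood at 0.988, 1.02 and 1.02 RPKM in young and at 1.71, 1.92 and 1.77 RPKM in old libraries. The groups were far apart for their spread, with a difference of 0.48 ± 0.07 (limma adjusted p = 0.0328, 0.00467 to 0.284 over the alternatives). The call was kept without young replicate 1 and ended when young replicate 2, young replicate 3 or any old library was left out.

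The counts in each list below stand beside 1.47% of all genes called higher by limma, 0.0999% lower and 11.2% at an unadjusted p under 0.05. In the list of ligand secretion and inactivation limma called 0 of 6 tested genes, with 1 at an unadjusted p under 0.05. The retromer gene Vps26a, at 22.0, 30.2 and 28.1 RPKM in young and 33.4, 32.4 and 35.7 RPKM in old libraries, had an adjusted limma p of 0.419, and Gpc4 and Tmed5 had adjusted limma p of 0.664 and 0.907. Of 11 other receptors and turnover genes limma called 0, with Lgr4 as the one at an unadjusted p under 0.05 and Lrp4 and Ptk7 next (limma adjusted p = 0.737 and 0.843). Of 28 genes of the destruction complex and cytoplasmic relay, Dact2 was called, and Rnf146 and Csnk1e followed (limma adjusted p = 0.389 and 0.559). Of 22 nuclear partners and repressors limma called 0, with 2 at an unadjusted p under 0.05. Cby1, whose product binds beta-catenin and opposes it, stood at 86.0, 72.0 and 72.8 RPKM in young and 53.8, 55.9 and 50.0 RPKM in old libraries, with no overlap and a difference of -0.52 ± 0.11 (limma adjusted p = 0.0973). The beta-catenin cofactor Pygo1 and the corepressor Aes had limma adjusted p of 0.204 and 0.628. Of 24 genes of the planar polarity and calcium branches limma called 0 and 0 had an unadjusted p under 0.05, the smallest being those of Mapk9, Mapk8 and Rac1. Without young replicate 1, limma called Dact2 and Vps26a higher (2.20% of the 91, beside 13.2% of all genes) and 27 lower (29.7%, beside 19.4%). Cby1, Pygo1, Rnf146 and Mapk9 were among these 27 (limma adjusted p = 0.00453, 0.0124, 0.0375 and 0.0484).

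Of 49 listed genes reported as targets of beta-catenin in various tissues, 46 had a row, 32 were tested, limma called 1 higher (beside 1.47% of all genes) and 0 lower (beside 0.0999%), and 10 had an unadjusted p under 0.05 (beside 11.2%). The groups did not overlap in 14 of the 32 (43.8%, beside 20.8% of all genes), 8 higher and 6 lower in old. This list was chosen with earlier results of these data known, so the share is not a test. Voom called 2 higher, Fosl1 and Met, and 0 lower. Fosl1, an AP-1 transcription factor that also responds to growth factor and stress signals, stood at 5.31, 8.45 and 7.92 RPKM in young and at 30.5, 33.0 and 35.5 RPKM in old libraries. It rose in old by 2.07 ± 0.17 (limma adjusted p = 0.00265, at most 0.0305 over the alternatives), with every old library at more than the highest young one and a ratio of means of 4.57. Id2, an inhibitor of helix-loop-helix factors, stood at 6.37, 6.06 and 5.87 RPKM in young and 4.32, 3.68 and 3.80 RPKM in old libraries (difference -0.53 ± 0.09, limma adjusted p = 0.0613). Lbh stood at 8.08, 16.1 and 13.2 RPKM in young and 24.0, 21.7 and 24.7 RPKM in old libraries (difference 0.91 ± 0.23, limma adjusted p = 0.183). Neither overlapped between groups, and they leaned in opposite directions. The median difference of the 32 targets was -0.04, with 14 positive and 18 negative. Without young replicate 1, limma called 6 targets higher (18.8%, beside 13.2% of all genes) and 11 lower (34.4%, beside 19.4%). Fosl1 and Lbh were among the higher ones and Id2 among the lower ones (limma adjusted p = 2.19e-05, 0.00548 and 0.00553).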

How the data were processed

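Messenger RNA libraries of 3 young and 3 old samples were read from 1 table. The authors deposited RPKM for each gene with exon positions and a gene length. The submitters' processing notes name fastp, STAR, HTSeq, edgeR and the build mm10, with no versions and no counting parameters. RPKM times gene length gave whole reads for 100% of values (tolerance 0.01), 64881180 to 84535939 per library. Of genes with 1 to 5 reads, 77.5% to 79.3% had an even number, so reads are not independent molecules and floors cover counting error only.

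Limma 3.58.1 in R 4.3.3 was fitted on log2(RPKM + 1) of the 12015 genes with at least 1 RPKM in at least 3 libraries. The fit had a group term alone and a trended variance and was two-sided, with Benjamini-Hochberg adjustment over all genes tested. It was also run on simulated data. These had no outlying library, and their true changes were larger than the member differences given here. The simulation therefore cannot show how the fit behaves with young replicate 1 or with small differences. Differences are old minus young and understate the change of low genes. Voom used genes with at least 10 reads in at least 3 libraries. Other alternatives were another pseudocount (0.1), other filters and scalings, an adjusted p under 0.1, a replicate block and leaving out each library.

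Values in every library are given for members that passed the filter, for members below it with a group mean of at least 0.2 RPKM and no overlap, and for the highest member of each class. From each other list every called gene and up to 3 of smallest unadjusted p are named. Lgr5, Lgr6, Rnf43, Znrf3 and Met were added after their values were seen. The members and lists were chosen with earlier results of these data known. Gene positions on mm10 come from the deposited table. Of the 50 members 48 lay at the locus of the same name in GENCODE M21.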

Additional observations from a re-analysis of the deposited data

How the results depend on the processing

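The 0 calls among members held with both pseudocounts, every filter, scaling and the voom test on all 6 libraries; at an adjusted p under 0.1 limma called 1 higher, Wisp1. Leaving out 1 library gave 0 to 4 members higher and 0 to 10 lower, with every call from the fit without young replicate 1. Without it, the combinations chosen after seeing the data gave 4 higher and 12 lower (voom) and 4 higher and 9 lower of 30 tested (genes of at least 0.1 RPKM, beside 8.91% and 11.1% of all genes); Tcf7l2 was the call lost in the latter. Other pathway genes called higher numbered 0 with no filter, 0 after quantile normalization and 0 to 2 with 1 library left out; lower, 1 (Cby1) after quantile normalization, 1 (Cby1) at an adjusted p under 0.1, and 0 to 27 with 1 library left out. Target genes called higher numbered 2 by voom and 1 to 6 with 1 library left out; lower, 1 (Id2) at an adjusted p under 0.1 and 0 to 11 with 1 library left out. Over all genes, the 177 higher became 80 to 1589 and the 12 lower 0 to 2329 with 1 library left out; the lower were 62 at an adjusted p under 0.1 and 7 by voom. The cause of these changes was not tested.

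With 1 library left out, 7 tested members changed direction in some fit, all among differences that limma had not called. The ranges were -0.076 to 0.13 for Rspo2, -0.37 to 0.49 for Tcf7l1, -0.23 to 0.019 for Tcf7l2, -0.46 to 0.13 for Fzd2, -0.35 to 0.13 for Lrp5, -0.034 to 0.11 for Axin1 and -0.15 to 0.31 for Axin2. By voom without young replicate 1 the changed values were -0.087 for Rspo2, -0.39 for Tcf7l1, -0.036 for Axin1 and -0.23 for Axin2. On the log2(RPKM + 0.1) scale they were -0.085 for Rspo2, -0.39 for Tcf7l1, -0.035 for Axin1 and -0.22 for Axin2 without young replicate 1, 0.029 for Tcf7l2, 0.16 for Fzd2 and 0.20 for Lrp5 without young replicate 2, 0.16 for Fzd2 and 0.13 for Lrp5 without young replicate 3, 0.032 for Lrp5 without old replicate 2 and -0.056 for Rspo2 without old replicate 3.

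With the replicate number as a block, 0 members and 0 other pathway genes were called, and 82 genes higher and 0 lower of all genes. Same-numbered libraries had correlations of deviations of -0.0257, -0.436 and 0.329, and not every library correlated best with its own number. The deviations were taken from group means, and young replicate 1 pulls the young mean toward itself. This check therefore cannot show whether the numbers pair the samples.

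With 3 libraries a group, and with young replicate 1 apart from the rest, the 95% intervals of many members span differences in both directions, and the 0 calls with all 6 libraries do not show that levels were alike. Members under 0.1 RPKM rest on few reads, and differences among them were not detectable at this depth.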
